A study of Mus musculus with 61 samples.

Results

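The granins are the acidic proteins that fill the dense-core granules in which endocrine cells and neurons store hormones, and 6 genes of this group were followed across mouse pancreatic ductal organoid cells in which Ngn3, Pdx1 and MafA were induced. The genes were Chga, Chgb, Scg2, Scg3, Vgf and Resp18, chosen by name as granins or granule matrix genes, out of 46078 genes in the count table. All 6 passed the filter on low values that left 24004 genes for testing. Cells came from adult C57BL/6 ductal organoids infected together with separate lentiviral vectors, each carrying one doxycycline-inducible factor with its own fluorescent protein (GFP with Ngn3, LSSOrange with Pdx1, tdTomato with MafA) and a further vector with the Tet-On transactivator. After 8 days of doxycycline, cells were sorted by colour into pools of 50, so that every pool held cells of one colour combination. The 12 conditions were Pdx1 (P), MafA (M) and Pdx1 with MafA (PM), each without Ngn3 and each with it (NP, NM and NPM), in cultures that received either wild-type Ngn3 (WT) or the phospho-mutant 6SA Ngn3, in which the Cdk target serines are alanine.

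The samples without Ngn3 were thus sorted from the same kind of infected and doxycycline-treated culture and carried Pdx1, MafA or both. Uninfected cells and cells with Ngn3 alone were not analysed here. Of 61 libraries, 58 held over 1000000 gene counts, and summing the technical repeats of each gave 32 samples, 17 with Ngn3 and 15 without, of 2579583 to 19461008 counts each. A condition had 2 or 3 samples, replicates 1 and 2 at organoid passage 2 and replicate 3 at passage 5. The labels do not say whether replicates came from separate mice, so p-values measure the spread between these samples. Neurog3, the endogenous name of Ngn3, was counted at 7.87 to 329 counts per 1000000 (CPM) in the samples with Ngn3 and at 0 to 0.788 CPM in those without, which checks the sort, although vector and endogenous transcripts cannot be told apart in these counts. Ductal markers (8 genes, among them Krt19, Sox9 and Epcam) summed to 11000 to 57295 CPM without Ngn3 and to 1643 to 17044 CPM with it, and 5 endocrine transcription factors (Insm1, Neurod1, Isl1, Pax6, Rfx6) to 0 to 2.88 and 80.7 to 1386 CPM. In pools of cells, more cells that express a gene and more RNA per cell cannot be told apart.

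Granins are made as soluble precursors in the secretory pathway, where they aggregate with hormones and calcium and help to form the granule, and they are cut by prohormone convertases into smaller peptides. Chromogranin A and chromogranin B are the main matrix proteins and general markers of neuroendocrine cells. Secretogranin II is the precursor of secretoneurin, secretogranin III links the aggregate to cholesterol-rich granule membrane, VGF is a nerve growth factor-inducible precursor of several peptides, and RESP18 is an endocrine secretory pathway protein related to the luminal part of the granule protein encoded by Ptprn.

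In the GRCm38 annotation Chga lay on the plus strand at chr12:102554969-102565028, Chgb on the plus strand at chr2:132781278-132795079, Scg2 on the minus strand at chr1:79434669-79440120, Scg3 on the minus strand at chr9:75643189-75684056, Vgf on the plus strand at chr5:137026392-137033351 and Resp18 on the minus strand at chr1:75272199-75278415. An exon of Resp18 overlaps the antisense gene Gm28902, and use of strand in the counting was not stated, so the Resp18 counts are uncertain to that extent. RefSeq promoter windows (GRCm38.p6) matched 5 of the 6 genes, all but Vgf. The sequence TGACG is the core of the cyclic AMP response element through which CREB is known to act on granin genes. It stood in the 250 bases before the start of 4 of these 5 genes. The windows of 30 bases around it are shown aligned, as a description of the letters only. Capitals mark TGACG, or the full palindrome TGACGTCA where it was present, and the coordinates and strands are chr12:102554886-102554915 (plus) for Chga, chr2:132781559-132781588 (plus) for Chgb, chr1:79440076-79440105 (minus) for Scg2 and chr9:75684068-75684097 (minus) for Scg3.
Chga: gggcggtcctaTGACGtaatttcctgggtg
Chgb: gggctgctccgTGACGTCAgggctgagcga
Scg2: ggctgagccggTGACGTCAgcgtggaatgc
Scg3: cgctgggtcgcTGACGccatcctcacgcct

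The match began 44 bases before the start in Chga, 72 in Chgb, 68 in Scg2 and 30 in Scg3. The palindrome TGACGTCA was found on either strand in 1.55% of 32851 mouse promoter windows of this length and TGACG in 17.8%, a shorter motif that the longer one contains. In Chgb and Scg2 the annotated gene begins further upstream than the RefSeq start, so the 30 bases shown for them lie within the annotated gene. Resp18 had no TGACG in its 250 bases.

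The other motif looked for was the E-box CANNTG, the letters bound by basic helix-loop-helix factors such as Ngn3 and NeuroD1. Chga and Resp18 had 3 matches each, against 1 in Chgb, 1 in Scg2 and none in Scg3, and 66.2% of all windows held at least 1 and 12.2% at least 3. Their 250 bases are shown because these were the 2 genes with the most matches, with each E-box in capitals. The Chga stretch is chr12:102554691-102554940 on the plus strand and the Resp18 stretch chr1:75278416-75278665 on the minus strand.
Chga: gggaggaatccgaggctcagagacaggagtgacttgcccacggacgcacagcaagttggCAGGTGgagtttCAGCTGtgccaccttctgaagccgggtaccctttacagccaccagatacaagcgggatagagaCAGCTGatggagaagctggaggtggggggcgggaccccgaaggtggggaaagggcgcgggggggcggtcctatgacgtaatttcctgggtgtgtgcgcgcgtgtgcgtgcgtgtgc
Resp18: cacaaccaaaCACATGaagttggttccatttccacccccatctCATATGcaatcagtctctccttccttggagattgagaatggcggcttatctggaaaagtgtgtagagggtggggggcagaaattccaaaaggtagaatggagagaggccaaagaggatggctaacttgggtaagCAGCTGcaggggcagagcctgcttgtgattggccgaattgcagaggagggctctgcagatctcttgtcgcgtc

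A match is a description of the letters, and binding was not measured here.

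Every one of the 17 samples with Ngn3 held more Chga, Chgb, Scg2, Scg3 and Resp18 transcript than any of the 15 samples without it, and 0.542% of the 24004 genes tested separated the samples in this way. Summed over the 6 genes, the level ran from 451 to 13049 CPM with Ngn3 (median 3968) and from 0.602 to 9.07 CPM without it (median 3.35). Vgf was the exception, since it stayed below 10 CPM in every sample and 7 of its 17 values with Ngn3 exceeded the highest value without.

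**Figure D1:**
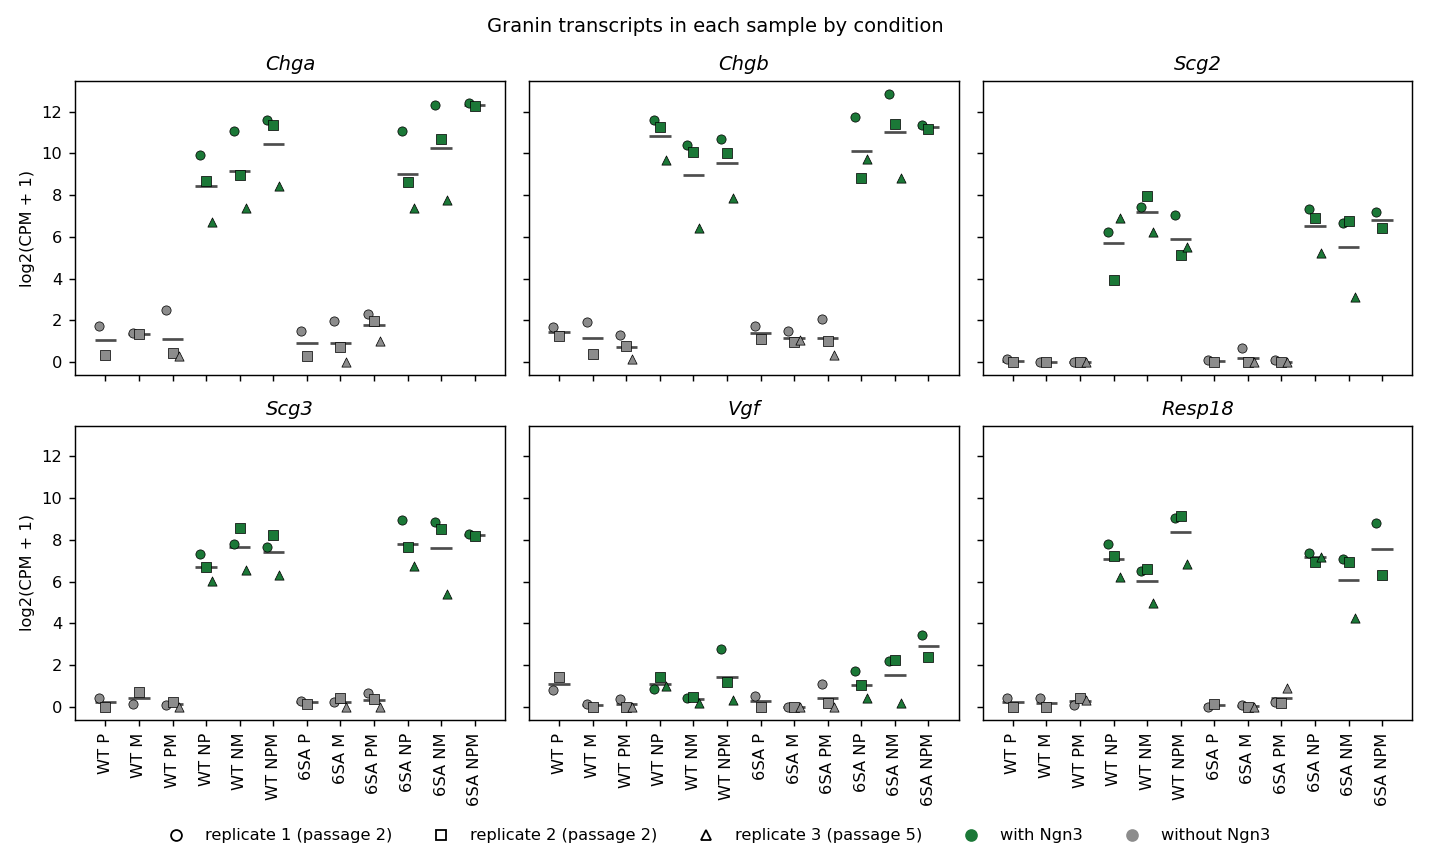
Level of each gene as log2(CPM + 1) in every sample of the 12 conditions, with a short line at the mean of each condition, green for samples with Ngn3 and grey for those without, and the marker shape giving the replicate. For 5 genes all green points lie above all grey points, whereas those of Vgf overlap.

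The question asked of each partner set was whether adding Ngn3 went with higher granin transcripts, tested by edgeR's quasi-likelihood method in one fit over all genes with Benjamini-Hochberg adjustment. With wild-type Ngn3, 4 of the 6 genes rose in NP against P (0.108% of all genes did), 5 in NM against M (0.308%) and 5 in NPM against PM (2.48%). With 6SA Ngn3, 5 rose in NP against P (0.367%), 5 in NM against M (1.17%) and 5 in NPM against PM (3.29%). In the mean of the 6 combinations all 6 rose, against 11.1% of all genes, and Scg3 and Resp18 ranked 1 and 2 of 24004 by p. None fell in any of these comparisons.

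The counts of calls, over all genes as well as the 6, depended on replicate 2. Without it, when WT P, 6SA P, WT M and 6SA NPM were left with 1 sample each whose spread was assumed to be like the rest, no gene passed in NP against P of either form or in NM against M with wild-type Ngn3, 2 passed in NM against M with 6SA Ngn3, and 5 in the mean of the 6 combinations. Over all genes tested, 0 then passed in NP against P of either form, 1 (lower) in NM against M with wild-type Ngn3 and 14 (higher) and 3 (lower) in NM against M with 6SA Ngn3. The median log2 fold change of the 6 genes was close to that of all replicates in these comparisons, at 8.45 against 8.92 and 10.06 against 10.10 in NP against P with wild-type and 6SA Ngn3, and at 8.74 against 9.03 and 10.51 against 10.60 in NM against M. With passage 2 alone (without replicate 3), 5 genes passed in each of the 6 combinations. Over all genes tested, 160, 178 and 671 then rose in NP, NM and NPM with wild-type Ngn3, and 294, 307 and 667 with 6SA Ngn3.

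**Figure D2:**
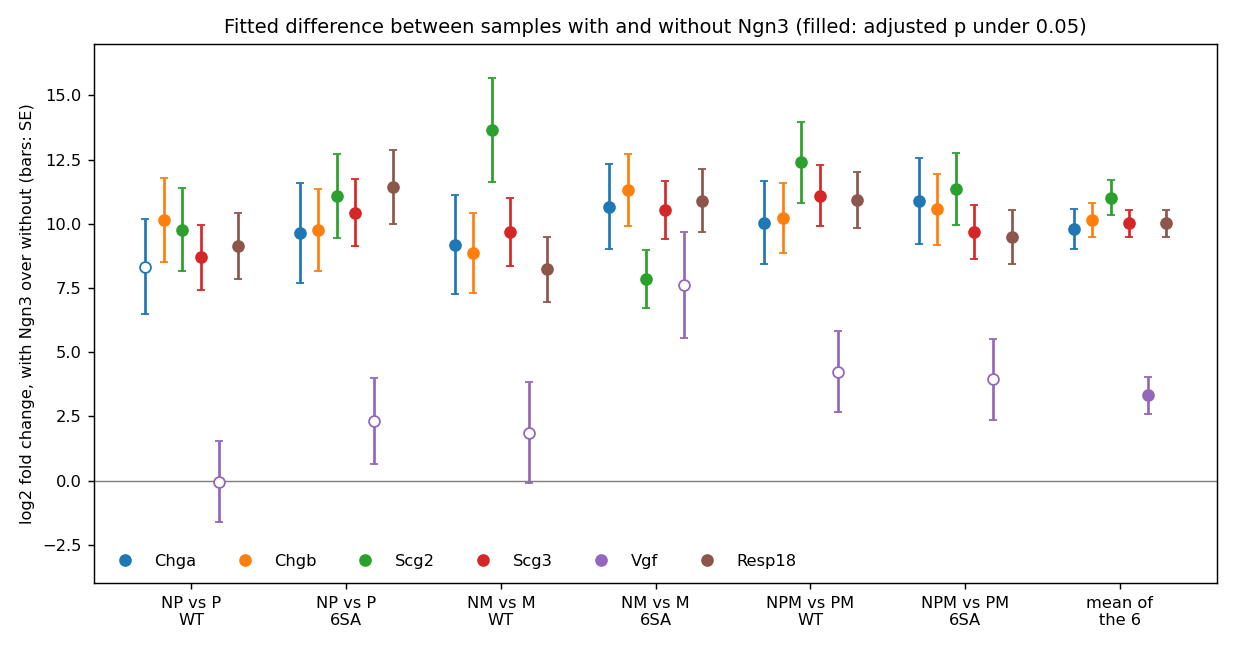
Fitted log2 fold change with its SE for each gene, samples with Ngn3 over samples without, in each partner set and Ngn3 form and as the mean of the 6, with filled points where the adjusted p was under 0.05. Values of the 5 genes other than Vgf lie between 7.85 and 13.6, and Vgf lies below them.

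Chga, the general neuroendocrine marker, was counted at 969, 405 and 105 CPM in the NP samples with wild-type Ngn3, at 2128, 491 and 168 CPM in NM and at 3126, 2590 and 349 CPM in NPM (replicates 1, 2 and 3). With 6SA Ngn3 the values were 2136, 399 and 164 CPM in NP, 5116, 1664 and 215 CPM in NM, and 5360 and 4881 CPM in the 2 samples of NPM. The passage 5 sample was the lowest of its condition each time there was one, in 5 of 5 conditions. Without Ngn3, Chga ranged from 0 to 4.67 CPM (median 1.54), so that the groups lay far apart, by 268-fold in NP against P with wild-type Ngn3 up to 1666-fold in NPM against PM with 6SA Ngn3 (mean CPM over the pooled CPM of the reference). The first of these was the only one of the 6 that did not pass (log2 fold change 8.33, SE 1.86, adjusted p = 0.074 by edgeR), and the mean of the 6 was 9.79 (SE 0.78, adjusted p = 4.0e-10 by edgeR).

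Chgb, the other main matrix granin, was at 3048, 2414 and 827 CPM in NP with wild-type Ngn3, at 1361, 1079 and 85.6 CPM in NM and at 1657, 1021 and 232 CPM in NPM. With 6SA Ngn3 it was at 3408, 454 and 838 CPM in NP, at 7227, 2736 and 456 CPM in NM and at 2589 and 2265 CPM in NPM. The samples without Ngn3 held 0.12 to 3.12 CPM, and the ratio of means ran from 392-fold in NM against M with wild-type Ngn3 to 2314-fold in NM against M with 6SA Ngn3. It passed in all 6 combinations, and the mean of the 6 was a log2 fold change of 10.15 (SE 0.65, adjusted p = 8.0e-12 by edgeR).

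Scg2, the secretoneurin precursor, lay well below Chga and Chgb. With wild-type Ngn3 it was at 73.7, 14.2 and 119 CPM in NP, at 169, 247 and 74.4 CPM in NM and at 129, 34.1 and 43.9 CPM in NPM. With 6SA Ngn3 it was at 162, 120 and 36.9 CPM in NP, at 99.7, 109 and 7.79 CPM in NM and at 146 and 84.6 CPM in NPM. It was the gene with the fewest reads where Ngn3 was absent, at 0 in 11 of 15 samples and 13 reads in all, 10 of them in replicate 1 of 6SA M. In WT M and WT PM no read was seen, which made it at least 685-fold and at least 624-fold higher in NM and NPM, taking 3 counts over the group as the floor. The 10 reads of 6SA M gave the lowest ratio, 197-fold, but 9 of them were in 1 library, and without that library the ratio was 1600-fold, with a counting interval of 287 to 63194. It passed in all 6 combinations and as their mean, where the fitted log2 fold change of 11.02 (SE 0.67, adjusted p = 1.8e-11 by edgeR) depends on the prior count, because some reference groups had no read.

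Scg3, which ties the granule core to the membrane, varied least among the samples with Ngn3, 12.1-fold from lowest to highest, whereas Chgb varied 84.4-fold. It was at 161, 103 and 64.3 CPM in NP, at 221, 375 and 93.5 CPM in NM and at 199, 296 and 79.4 CPM in NPM with wild-type Ngn3. With 6SA Ngn3 it was at 493, 201 and 106 CPM in NP, at 466, 362 and 40.8 CPM in NM and at 305 and 290 CPM in NPM. Its values without Ngn3 were 0 to 0.617 CPM, 31 reads in all 15 samples together. It passed in all 6 combinations, with a mean log2 fold change of 10.02 (SE 0.52, adjusted p = 2.8e-13 by edgeR).

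Resp18, the Ptprn-related secretory pathway gene, was at 225, 150 and 74.3 CPM in NP with wild-type Ngn3, at 88.9, 95.6 and 29.9 CPM in NM and at 530, 567 and 114 CPM in NPM. With 6SA Ngn3 it was at 164, 123 and 142 CPM in NP, at 136, 121 and 18.2 CPM in NM and at 443 and 79.4 CPM in NPM. The 2 samples of 6SA NPM thus lay further apart than the passage 2 samples of any other condition with Ngn3 did for this gene. It was at 0 to 0.857 CPM without Ngn3, passed in all 6 combinations, and had a mean log2 fold change of 10.02 (SE 0.53, adjusted p = 2.8e-13 by edgeR).

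Vgf, the peptide precursor, was nearly silent. It was counted with 1 to 147 reads in the samples with Ngn3 (median 1.05 CPM, highest 9.97 CPM in replicate 1 of 6SA NPM, where 1 of 3 libraries held 105 of the 147 reads, at 46.7 CPM against 3.03 and 4.33 CPM in the others), above a floor of 3 counts in 12 of 17. Without Ngn3 it was at 0 in 8 of 15 samples and highest, at 1.68 CPM, in replicate 2 of WT P. In NP with wild-type Ngn3 it was at 0.832, 1.69 and 0.984 CPM against 0.721 and 1.68 CPM in P, a ratio of 1.22 with a counting interval of 0.729 to 2.24. By edgeR no combination passed on its own, with the lowest adjusted p at 0.062 in NM against M with 6SA Ngn3, where the reference had no read and Vgf was at least 22.6-fold higher. With the replicate number as a block Vgf passed there (adjusted p = 0.012 by edgeR) and in NPM against PM with wild-type Ngn3 (adjusted p = 0.046 by edgeR). DESeq2 called Vgf in both of these (adjusted p = 0.0046 and 0.027) and in NPM against PM with 6SA Ngn3 (adjusted p = 0.039). The mean of the 6 did pass (log2 fold change 3.32, SE 0.72, adjusted p = 0.0011 by edgeR), though not without replicate 2 (3.11, adjusted p = 0.104 by edgeR).

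To compare levels between genes, CPM were divided by the exon length of each gene in kilobases. On this scale the medians over the 17 samples with Ngn3 were 497 for Chgb, 352 for Chga, 119 for Resp18, 73.5 for Scg3, 39.6 for Scg2 and 0.352 for Vgf. Chga and Chgb exchanged places between samples, Chgb first in 10 and Chga in 7, and their ranges of 38.1 to 1945 and 31.2 to 2638 overlapped almost fully. Resp18, Scg3 and Scg2 also overlapped, with ranges of 17.6 to 550, 14.9 to 180 and 3.1 to 98.2, while Vgf was last in all 17 samples. Together Chga and Chgb made up 49.8% to 92.9% of the 6 genes' level per length (median 82.7%), with the lowest share in replicate 3 of WT NM.

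**Figure D3:**
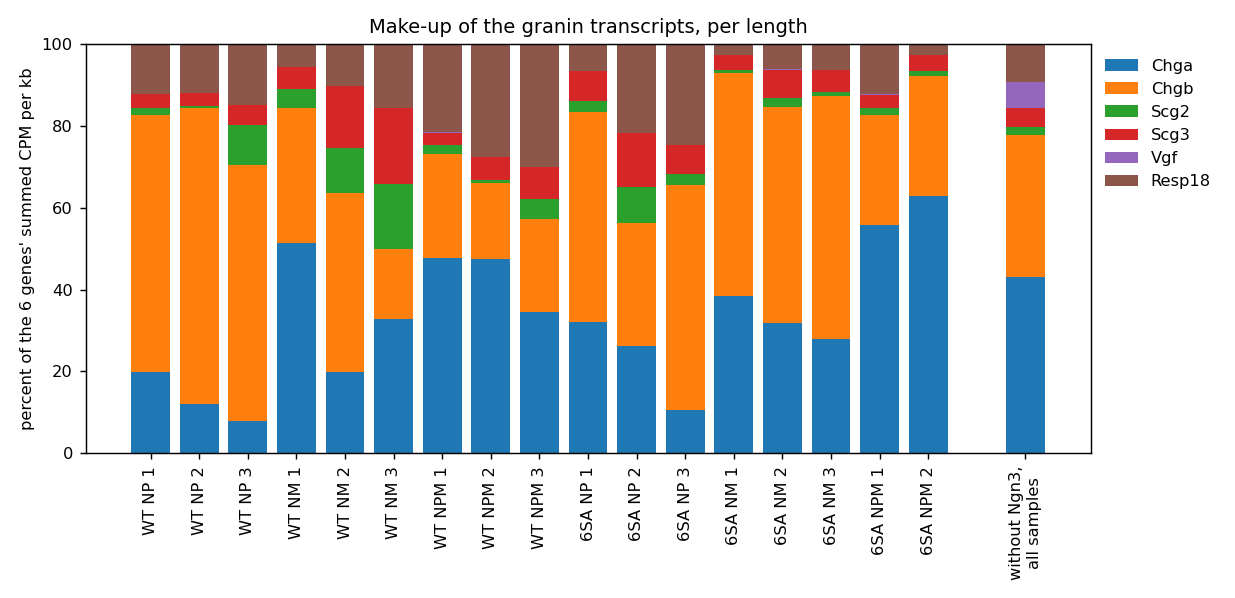
Percent of the summed CPM per kb of the 6 genes that each gene took, one bar for each of the 17 samples with Ngn3 and one at the right for the reads of all 15 samples without Ngn3 pooled. Chga is larger than Chgb in the 5 bars of NPM and smaller in the 6 bars of NP, and the bar without Ngn3 holds 6.36% Vgf.

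The samples without Ngn3 held few granin reads. Of 646 such reads, counted per length, Chga took 43.2%, Chgb 34.5%, Resp18 9.35%, Scg3 4.55% and Scg2 2.08%, against 40.9%, 42.5%, 9.43%, 4.89% and 2.18% in the pooled reads of samples with Ngn3. Vgf took 6.36% of the reads without Ngn3 and 0.045% with it. Single samples with Ngn3 spread widely around the pooled shares, from 7.88% to 62.9% for Chga and from 2.73% to 30.03% for Resp18, and the difference in make-up was not tested. Relative to the sample with Ngn3 of the same partner, culture and replicate number, the summed level without Ngn3 was 0.0348% to 0.143% in 14 pairs, and Neurog3 was 0% to 2.26%. The origin of these reads was not tested.

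The second question was whether the partner of Ngn3 mattered. Over both forms, no gene of the 6 passed in NPM against NP (1.88% of all genes passed) by edgeR or DESeq2, although 2 had an unadjusted p under 0.05. In NPM against NM 1 passed (2.72% of all genes), and none did in NP against NM (0.133%), where no unadjusted p was under 0.05. The gene that passed was Resp18, with medians of 443 CPM in NPM and 92.2 CPM in NM and a log2 fold change of 2.00 (SE 0.51, adjusted p = 0.033 by edgeR). Its ranges overlapped, 79.4 to 567 CPM in NPM and 18.2 to 136 CPM in NM. The call was lost without replicate 1 (1.33, adjusted p = 0.12 by edgeR), when Chga passed in its place (2.29, adjusted p = 0.0090 by edgeR), and without replicate 2 (2.48, adjusted p = 0.32 by edgeR). With the replicate number as a block, Resp18 (1.83, adjusted p = 0.0068 by edgeR) and Chga (1.30, adjusted p = 0.017 by edgeR) both passed in NPM against NM, as did 8.49% of all genes. A fit of only the conditions compared lost the Resp18 call too, with none of the 6 called and 349 higher and 182 lower over all genes.

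Chga had its highest median with all the factors, 3126 CPM in NPM against 1078 CPM in NM and 402 CPM in NP. Neurog3 itself had the same order, with medians of 167 CPM in NPM, 58.1 CPM in NM and 38.5 CPM in NP. Its log2 difference between NPM and NP was 1.48 (SE 0.63, adjusted p = 0.25 by edgeR). The part of the Neurog3 level in the order of Chga was not tested. The fitted log2 difference of Chga between NPM and NP was 2.27 (SE 0.83, adjusted p = 0.17 by edgeR), and without replicate 1 it was 3.34. With the replicate number as a block it was 2.28 (adjusted p = 0.00021 by edgeR), though the numbers were not shown to pair these samples. Over all genes 483 were then higher and 705 lower. In same-numbered samples Chga was higher in NPM in 5 of 5 pairs against NP and 5 of 5 against NM. Chgb was higher in 1 of 5 and 2 of 5, and these counts were not tested. Chgb showed no such order, with medians of 1657 CPM in NPM, 1220 CPM in NM and 1626 CPM in NP. The ratio of Chga to Chgb, chosen for description after the values were seen, was 1.51 to 2.54 in the 5 samples of NPM, 0.127 to 0.88 in the 6 samples of NP and 0.455 to 1.96 in the 6 samples of NM, so that NPM and NP did not overlap. In NM the ratio was above 1 in 2 samples, both with wild-type Ngn3. For replicate 1 of WT NM, 1 of these, the ratio rested on 1 library. Its libraries held Chga at 2685 and 1601 CPM and Chgb at 2735 and 167 CPM. A library of 6SA NPM replicate 3, left out for its depth, had the opposite order, with Chga at 717 CPM and Chgb at 1495 CPM, and the ratio was not tested.

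**Figure D4:**
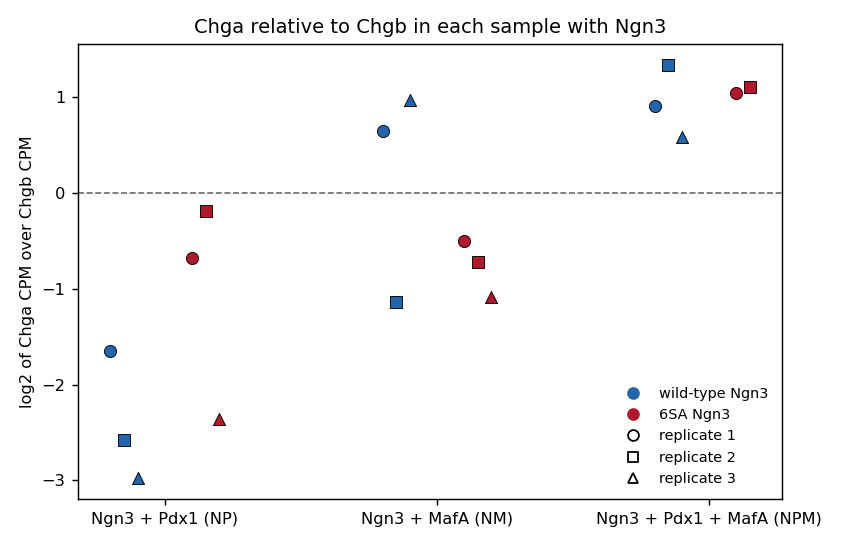
Ratio of Chga to Chgb CPM on a log2 scale in each of the 17 samples with Ngn3, by partner, with colour for the Ngn3 form and shape for the replicate, and a dashed line at equal CPM. The 5 samples of NPM lie above the line and the 6 of NP below it, while those of NM lie on both sides.

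The third question was whether 6SA Ngn3 differed from wild-type Ngn3. No gene of the 6 passed over the cells with Ngn3 (0% of all genes), in NP (0%), in NM (0%), in NPM (0%), between the cultures in cells without Ngn3 (0%) or in the interaction of Ngn3 and its form (0%). Without a replicate block, edgeR gave 1421 of all genes and none of the 6 an unadjusted p under 0.05 over the cells with Ngn3. DESeq2 called none of the 6 there. Chga had a log2 difference of 1.18 (SE 0.66, adjusted p = 0.88 by edgeR) and Chgb one of 0.98 (SE 0.54, adjusted p = 0.87 by edgeR). With the replicate number as a block, Chga differed by 0.92 (SE 0.27, unadjusted p = 0.0020, adjusted p = 0.42 by edgeR). Chgb then differed by 0.85 (SE 0.29, unadjusted p = 0.0073, adjusted p = 0.50 by edgeR). No gene passed in that fit, and 1827 of all genes had an unadjusted p under 0.05. In same-numbered samples of the 2 forms Chga was higher with 6SA Ngn3 in 7 of 8 pairs, Chgb in 7 of 8, Vgf in 6, Scg3 in 5, Scg2 in 4 and Resp18 in 3. Pairs of one replicate number may share cultures, so the 8 are not independent replicates, and these counts were not tested. With SEs of this size the tests do not show that the forms acted alike.

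Samples with Ngn3 differed much within a condition. Chga was 6.54-fold to 15.8-fold higher in the mean of the passage 2 samples than in the passage 5 sample over 5 conditions, Scg3 2.05-fold to 10.2-fold, and Neurog3 3.37-fold to 12.4-fold. Scg2 was not always so, from 0.368-fold to 13.4-fold. Passage 5 samples were all replicate 3, so that passage and replicate cannot be told apart. Technical repeats are further libraries of the same sample, and the labels do not say whether they came from separate pools of cells. They also differed, by a median of 1.88-fold for Chga, 2.41-fold for Chgb and 1.44-fold for Scg3 in the 8 samples with Ngn3 that had them, and in replicate 1 of WT NM the repeats held 2735 and 167 CPM of Chgb.

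Over the 17 samples with Ngn3, pairwise Pearson r of log2(CPM + 1) among the 6 genes ran from 0.251 (Chgb with Scg2) to 0.795 (Chga with Scg3), and over the 12 samples at passage 2 from -0.22 (Scg2 with Resp18) to 0.672 (Chga with Vgf). With Neurog3, r was 0.822 for Scg3, 0.813 for Chga and 0.393 for Scg2, or 0.603, 0.614 and 0.335 at passage 2. The samples share passage and depth differences, so these are descriptions. Of 11708 other genes with a mean of at least 5 CPM in these samples, those whose pattern was most like the mean of the 6 genes were St6galnac4 (r = 0.945), Gnao1 (0.944), Gpsm1 (0.935), Ccdc28b (0.922) and Apbb1 (0.921), of which Gpsm1 alone was among the 5 highest within passage 2 (0.908).

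Other genes of dense-core granules moved with the granins. A list of 25 such genes, covering hormone processing, granule membrane and exocytosis, had 24 members tested, of which 20 rose and none fell with Ngn3 in the mean of the 6 combinations (11.1% and 10.5% of all genes), with a median log2 fold change of 3.15 against 0.07 over all genes tested. In 2 alternatives 1 gene of the list was called lower, with first repeats only and with edgeR without its legacy setting. Over all genes, 2019 and 2644 were called lower in these. In single combinations by edgeR 3, 6 and 14 rose in NP, NM and NPM with wild-type Ngn3 (0.108%, 0.308% and 2.48% of all genes) and 5, 10 and 15 with 6SA Ngn3 (0.367%, 1.17% and 3.29%). These counts changed with the fit, to 9, 12 and 17 and to 14, 14 and 19 by DESeq2. With the replicate block they were 10, 12 and 18 and 14, 13 and 18. Calls over all genes rose too, to 197, 322 and 1373 and to 389, 720 and 1565 by DESeq2. With the block they were 182, 308 and 1232 and 399, 645 and 1407. Without replicate 2, some conditions had 1 sample. The median log2 fold change of the list was then 2.25, 2.96 and 3.54 and 2.86, 3.66 and 3.965. With all replicates it was 2.23, 3.03 and 3.64 and 2.83, 4.01 and 4.598. No gene of the list passed between 6SA and wild-type Ngn3. The 5 with the lowest p were Ptprn2, a granule membrane protein (log2 fold change 8.98, SE 0.51), the prohormone convertases Pcsk1 (8.85, SE 0.56) and Pcsk2 (10.04, SE 0.68), carboxypeptidase E encoded by Cpe (4.68, SE 0.37), and the convertase inhibitor Pcsk1n (10.55, SE 0.85).

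Cpe was already at 16.8 to 105 CPM without Ngn3 and at 359 to 7806 CPM with it, and Ptprn at 0.843 to 51.8 CPM and 65.9 to 632 CPM. Pcsk2, by contrast, was at 0 to 1.74 CPM without Ngn3 and at 25.5 to 1162 CPM with it. The 4 genes that did not pass were the vesicular monoamine transporters Slc18a1 (1.07, SE 0.46) and Slc18a2 (0.20, SE 0.24), the trafficking gene Hid1 (0.53, SE 0.27) and the priming factor Cadps2 (-0.94, SE 0.39).

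**Figure D5:**
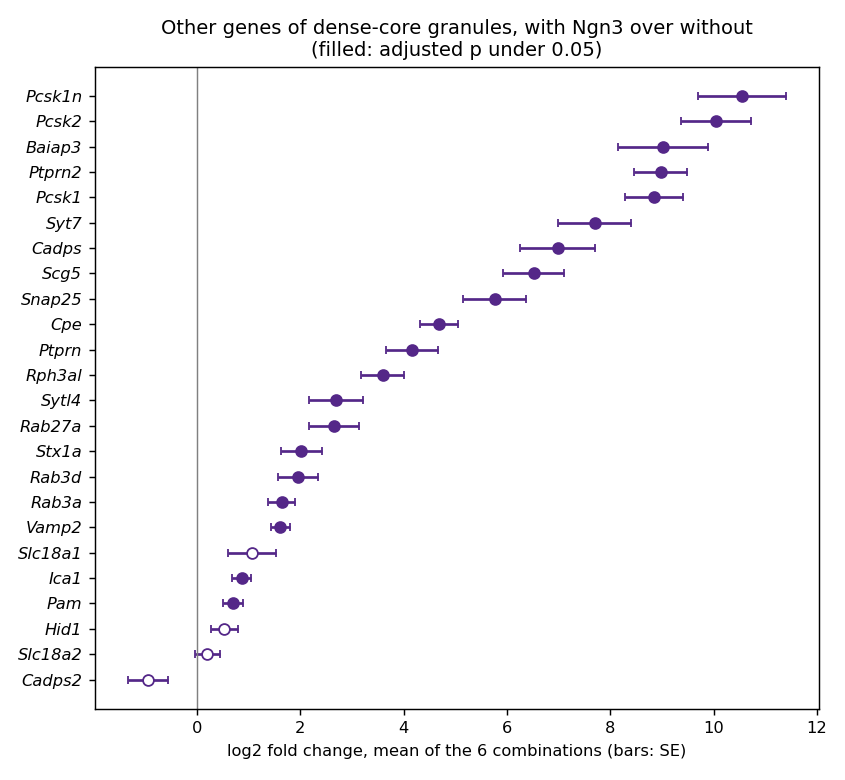
Fitted log2 fold change with its SE for the 24 other granule genes tested, samples with Ngn3 over samples without in the mean of the 6 combinations, with filled points where the adjusted p was under 0.05. Pcsk1n and Pcsk2 lie highest at 10.55 and 10.04, and Cadps2 is the one value below 0.

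Of the regulators fixed for context, Neurod1 (log2 fold change 10.33, SE 0.56) and Insm1 (7.70, SE 0.60), factors of early endocrine cells, rose with Ngn3. Rest, the repressor that is known to keep neuroendocrine genes silent outside such cells, fell by 1.08 on the log2 scale (SE 0.37, adjusted p = 0.036 by edgeR), a call lost without replicate 1 (adjusted p = 0.12 by edgeR) and without replicate 2 (adjusted p = 0.062 by edgeR). Its values with Ngn3 were 0 to 104 CPM and without Ngn3 66.4 to 165 CPM. Its median was 13.9 CPM in NPM, 78.8 CPM in NM and 63.0 CPM in NP, and it passed neither in NPM against NM (adjusted p = 0.17 by edgeR) nor in NPM against NP (adjusted p = 0.35 by edgeR). The summed level of 8 neural markers, among them Elavl3, Stmn2 and Th, was 4.54 to 641 CPM with Ngn3 and 0 to 14.3 CPM without, with Sox10 at 0 in all samples, and its part in the granin levels was not tested. Mesenchymal markers (6 genes) summed to 0 to 296 CPM with Ngn3 and 0 to 13.2 CPM without, acinar markers (6 genes, Amy2a5 at 0 throughout) to 0.153 to 34.3 and 0.616 to 17.1 CPM, blood markers (4 genes, Hba-a1 at 0 throughout) to at most 4.75 and 2.47 CPM, and endothelial markers (3 genes) to at most 26.5 and 0.28 CPM, and the part of these in the granin levels was not tested.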

How the data were processed

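Libraries were made from sorted pools of 50 cells by full-length cDNA amplification and Nextera XT tagmentation. Reads were aligned by the authors with GSNAP to mm10 and summarised with HTSeq 0.5.3p3, per the labels' processing notes, and the deposited values are raw counts per Ensembl gene. The 92 spike-in sequences and rows that name no gene stayed out of totals and tests. Of aligned reads, 8.69% to 31.7% were in no gene and 3.92% to 24.9% were ambiguous. Identifiers were named from the reference tables (45143 of 46078 matched).

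Libraries with more than 1000000 gene counts were kept, which left out 3 of 61 (all of NPM), and technical repeats were summed. Tested genes had a read in 5 or more libraries and a log2(CPM + 1) variance over 0.001. CPM were scaled by TMM. All 12 conditions entered one edgeR 4.0.16 quasi-likelihood fit in R 4.3.3 with Benjamini-Hochberg adjustment, called at 0.05, and the SE was the log2 fold change over the square root of F. A reference group with no read was set to 3 counts over its depth, and ratios to 1 or more reads have exact Poisson 95% intervals, which cover counting error only. The steps were checked on simulated data.

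The 6 genes, the lists and the tests were chosen with earlier results of these data known. Named genes were all 6, of the granule list the 5 called with the lowest p and every one called lower, the 5 genes nearest in Pearson r, and 4 context genes. The other granule genes named were chosen after their values were seen. Replicate numbers were taken to pair samples where 3 pairs or more all had a correlation of deviations above 0.1, which held for NPM against PM with wild-type Ngn3 (0.127 to 0.33), NM against M with 6SA Ngn3, NPM against NM with wild-type Ngn3 (0.137 to 0.411) and 6SA against wild-type Ngn3 in NP and NM, and not for NPM against NP (lowest -0.0381 with wild-type Ngn3). Alternatives were DESeq2 1.42.0, RLE scaling, other gene filters, a replicate block, all libraries, first repeats only, only the conditions compared, leaving out each replicate and, added after the data were seen, edgeR without its legacy setting.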

Additional observations from a re-analysis of the deposited data

Results flagged for a closer look

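The 3 libraries left out for depth, all of NPM cells and of 241563 to 625650 gene counts, also held granin reads above the highest level of any library without Ngn3 (7.55 CPM for Chga, 4.76 CPM for Chgb, 1.72 CPM for Vgf and below these for the rest), on plain library totals. In the left-out repeat of 6SA NPM replicate 2, Chga was at 3014 CPM, Chgb at 1242, Scg2 at 174, Scg3 at 310.5, Vgf at 20.7 and Resp18 at 244 CPM. In the library of 6SA NPM replicate 3, which was the one sample of that condition at passage 5, Chga was at 717 CPM, Chgb at 1495, Scg2 at 63.6, Scg3 at 159 and Resp18 at 78.3 CPM. In the left-out repeat of WT NPM replicate 2, Chga was at 3449 CPM, Chgb at 1311, Scg2 at 60.7, Scg3 at 264, Vgf at 30.4 and Resp18 at 724 CPM. The Vgf values rest on 5 and 19 reads. No group had more than 3 samples, so the check for an outlying sample within a group, which needs 4, was not run, and no gene of the 6 differed in the interaction of Ngn3 and its form.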

How the results depend on the processing

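The number of the 6 genes called was within 1.5 times of the reported one in every alternative except the following. Without each replicate in turn the count ran from 0 to 5 in NP against P with wild-type Ngn3, from 0 to 5 in NM against M with wild-type Ngn3, from 0 to 5 in NP against P with 6SA Ngn3, from 2 to 5 in NM against M with 6SA Ngn3, from 0 to 1 in NPM against NP and from 0 to 1 in NPM against NM, the low values without replicate 2 and, in NPM against NP, also without replicate 3. With no gene filter 2 genes passed in NPM against NP (Chga and Resp18), 2 in NPM against NM, 1 lower in NP against NM (Chga), 2 in 6SA against wild-type Ngn3 over the cells with Ngn3 (Chga and Chgb) and 1 in NM (Chgb). Calls rose over all genes too. Of 31181 genes then fitted, 494 were higher and 960 lower in NPM against NP, 984 and 946 in NPM against NM, and 500 and 134 in NP against NM. Between the forms 132 were higher and 107 lower over the cells with Ngn3, and 71 and 17 in NM. With the replicate block 1 gene passed in NPM against NP (Chga, log2 fold change 2.28, adjusted p = 0.00021 by edgeR), where the numbers were not shown to pair the samples, and 2 in NPM against NM, and the paired fit moved no other count of members by over 1.5 times. In NPM against NM 2 passed without the legacy setting (919 higher and 729 lower over all genes) and 0 with only the conditions compared (349 higher and 182 lower over all genes). The causes were not tested. Of 645 alternative fits of the 55 fold changes given by name, 593 kept their direction and side of the threshold, 26 lost the call (22 of them without replicate 2), 26 gained it and 0 changed sign. Of 594 alternative fits of the other 50 fold changes of the 6 genes, 49 changed sign, none of them past the threshold. Chga in NP against P with wild-type Ngn3, not called in the report, passed with the block (9.14, adjusted p = 3.2e-08 by edgeR). Vgf in the same comparison, fitted at -0.04, changed sign in 10. RLE scaling moved the median of all genes in NPM against PM with wild-type Ngn3 from 0.03 to 0.16 on the log2 scale. On plain totals 68 of 72 condition means stayed within 1 SD. Depth limited Vgf most, and with 2 or 3 samples a condition and Chga spread over 51.1-fold, differences of a few fold between conditions with Ngn3 could not be settled.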
